A study of Mus musculus with 6 samples.

Results

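The miR-146 family of the mouse consists of a pair of hairpins, mir-146a and mir-146b, whose 5p arms share one seed, the stretch at the 5′ end of a miRNA that pairs with its targets. Its mature products were followed in small RNA libraries from pancreatic islets, the hormone-secreting mini-organs scattered through the gland. Members were taken by name, as the rows mmu-miR-146a-5p, mmu-miR-146a-3p, mmu-miR-146b-5p and mmu-miR-146b-3p (mmu stands for the mouse and is left out from here on), and all 4 were present among the 1011 rows of the table. The filter on low counts was passed by 2 of the 4, both of them 5p arms, and by 406 rows in all. The islets were primary islets from HFD-fed or NCD-fed mice, with 3 libraries per diet and no other agent or genotype in the labels. Strain, age, sex and length of feeding were not among the details available, nor was it stated whether a library stands for 1 animal or a pool, so the spread between libraries may be partly technical. The family was selected on the read counts of miR-146a-5p in these same libraries, which differed between the diets. Its HFD against NCD values are therefore given as a description, and no test of them is used as support.

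miR-146 is known as a feedback brake on innate immune signalling. NF-kB, the transcription factor switched on by Toll-like and interleukin-1 receptors, induces transcription of mir-146a, and the mature miRNA represses the adaptor proteins Irak1 and Traf6 that carry the signal from those receptors to NF-kB. In beta cells miR-146a is known to respond to inflammatory cytokines and to palmitate, a saturated fatty acid.

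The sequences show what the family shares and where its members part. The mature forms below are those of the deposited table, identical for all 4 members to RefSeq's GRCm38.p6 entries, with the seed (bases 2 to 8 from the 5′ end) in capitals.
miR-146a-5p: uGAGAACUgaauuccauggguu
miR-146b-5p: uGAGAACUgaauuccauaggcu
miR-146a-3p: cCUGUGAAauucaguucuucag
miR-146b-3p: gCCCUAGGgacucaguucuggu
The 5p arms are both 22 bases long and alike at 20 positions. They differ by G18A and U21C, with the base of miR-146a-5p first and positions counted from its 5′ end, so that both differences lie in the 3′ part, outside the seed. No other row of the table and no other of the 1679 mature names in the RefSeq table carries the seed GAGAACU. The 3p arms have different seeds and match at 4 of 22 positions when laid side by side without gaps. No row was the reverse complement of a member over 18 bases, and the one row that shared 15 bases in a row with a member was that of the other 5p arm.

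The hairpins are shown next with the 5p and then the 3p arm in capitals, since the arm comparison further on rests on them.
Mir146: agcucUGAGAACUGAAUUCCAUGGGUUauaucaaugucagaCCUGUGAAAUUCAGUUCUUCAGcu
Mir146b: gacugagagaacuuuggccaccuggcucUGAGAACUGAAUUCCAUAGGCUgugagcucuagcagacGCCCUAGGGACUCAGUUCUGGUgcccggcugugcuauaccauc
In GRCm38 the mir-146a hairpin (RefSeq symbol Mir146) lies at chr11:43374397-43374461 on the minus strand. It overlaps no other annotated gene in GENCODE M21. Only protein-coding, long intergenic non-coding and antisense genes were searched for neighbours. The nearest of these is the long non-coding RNA Gm12148, on the opposite strand and 11021 bases away, and the nearest protein-coding gene is Pttg1. The mir-146b hairpin (Mir146b) lies at chr19:46342762-46342870 on the plus strand, inside an intron of Mfsd13a, a gene on the same strand, and overlaps no exon of it. The arms are separated by 14 bases in the first hairpin and by 16 in the second.

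The libraries held 7166712 to 11172255 counts, which gave each 5p arm at least 1708 reads in each library. Levels are given as CPM, the count relative to the library total, with the totals scaled by TMM, a method that sets library sizes from the bulk of miRNAs. The TMM factor of NCD 3 was 1.73, against 0.840 to 0.995 in the other 5 libraries. The 8 islet endocrine miRNAs, led by miR-375-3p, took 48.9%, 50.3% and 51.1% of all reads in HFD 1, HFD 2 and HFD 3. They took 60.8%, 53.7% and 50.6% in NCD 1, NCD 2 and NCD 3. The defining miRNAs of the labelled tissue were thus present in all 6 libraries. On the scaled totals, which carry the TMM factor, their sum was 292007 CPM in NCD 3 and 513939 to 646376 CPM in the others. Within a diet no pair of libraries agreed to within sampling noise (chi-square of 464 or more per degree of freedom), so none was treated as a library deposited under another name. Repeat preparations of a single RNA would differ in this way too.

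miR-146a-5p was the member with the highest level and stood higher in HFD islets. Its counts were 33149, 23799 and 59947 in libraries HFD 1, HFD 2 and HFD 3, and 3885, 9285 and 10872 in NCD 1, NCD 2 and NCD 3. On the scaled totals these were 3692, 3004 and 5451 CPM in the HFD and 576, 952 and 773 CPM in the NCD libraries. The lowest HFD library, HFD 2, still exceeded the highest NCD library, NCD 2, and HFD 3 was the highest of the 6.

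The position of miR-146a-5p within each library, which needs no scaling between libraries, showed the same order. By count it was the miRNA of rank 21, 26 and 16 in libraries HFD 1, HFD 2 and HFD 3, and of rank 49, 37 and 38 in NCD 1, NCD 2 and NCD 3. Its share of all reads was 0.310%, 0.252% and 0.542% in the HFD libraries and 0.0542%, 0.0831% and 0.134% in the NCD libraries. The diets did not overlap in either measure. The mean share was 0.368% ± 0.153 over the HFD libraries against 0.0904% ± 0.0403 over the NCD libraries (SD, n = 3 per diet).

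The level of miR-146a-5p averaged 4049 ± 1262 CPM over the HFD libraries against 767 ± 188 CPM over the NCD libraries (SD, n = 3 per diet). The edgeR quasi-likelihood fit over all 406 miRNAs gave a log2 fold change of 2.40 ± 0.34 (SE), or 5.28-fold. In the order of fitted log2 fold changes it took place 2 of 406, after a predicted miRNA with at most 3.82 CPM in any library. In bulk islet RNA, more cells of a type that holds the miRNA and more of it per cell cannot be told apart.

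miR-146b-5p, the paralogue with the same seed, was at a lower level and its diets overlapped. Its counts were 4324, 2412 and 5087 in libraries HFD 1, HFD 2 and HFD 3, and 1708, 3433 and 2484 in NCD 1, NCD 2 and NCD 3. This came to 482, 304 and 463 CPM in the HFD and 253, 352 and 177 CPM in the NCD libraries. HFD 2 lay below NCD 2, while HFD 1 and HFD 3 lay above all NCD libraries. By count it held ranks 50 to 63 in HFD and 59 to 84 in NCD libraries.

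The level of miR-146b-5p averaged 416 ± 97.2 CPM over the HFD libraries against 261 ± 87.8 CPM over the NCD libraries (SD, n = 3 per diet), and the fit gave 0.68 ± 0.34 (SE) on the log2 scale. This value leaned on the scaling. On library totals alone, which moved the median of all tested miRNAs from 0.03 to -0.37, it was 0.40, and miR-146a-5p was at 2.03. As shares of all reads, miR-146b-5p had 0.0405%, 0.0256% and 0.0460% in the HFD and 0.0238%, 0.0307% and 0.0306% in the NCD libraries.

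**Figure D1:**
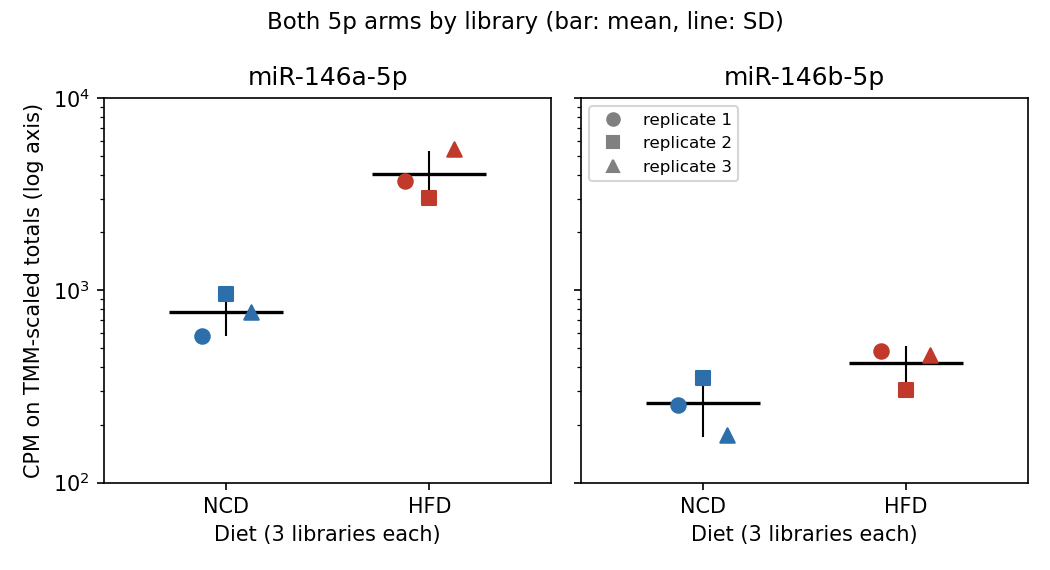
Levels of miR-146a-5p (left) and miR-146b-5p (right) in CPM on TMM-scaled totals, on a log axis, by diet; each symbol is a library, the bar is the mean and the line the SD (n = 3). For miR-146a-5p the HFD libraries sit between 3004 and 5451 CPM and the NCD libraries between 576 and 952 CPM, while for miR-146b-5p the HFD 2 library falls below NCD 2.

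Diets that did not overlap were found for 1 of the 2 tested members, miR-146a-5p, where the same held for 15.3% of all tested miRNAs in either direction and for 10.3% with HFD higher. The edgeR quasi-likelihood test with Benjamini-Hochberg adjustment over all 406 miRNAs called 1 (0.246%) at an adjusted p of 0.05, and this was miR-146a-5p, on whose counts the family was selected. These counts were fixed by that choice and nothing is read from them. The call was absent without NCD 1, where the log2 fold change was 2.17, on library totals alone and with limma-trend on log2 TPM values.

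The ratio of the paralogues within a library is free of scaling between libraries. There were 7.67, 9.87 and 11.8 reads of miR-146a-5p per read of miR-146b-5p in libraries HFD 1, HFD 2 and HFD 3, and 2.27, 2.70 and 4.38 in NCD 1, NCD 2 and NCD 3. All 6 libraries thus held more miR-146a-5p than miR-146b-5p, and the ratio in each HFD library was above that in each NCD library. Within the NCD diet NCD 3 had the highest ratio, and within the HFD diet HFD 3 did.

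As a share of the 5p reads of the family, miR-146a-5p made up 88.5% (95% Wilson interval 88.1% to 88.8%) in HFD 1, 90.8% (90.4% to 91.1%) in HFD 2 and 92.2% (92.0% to 92.4%) in HFD 3. The NCD shares were 69.5% (68.2% to 70.7%), 73.0% (72.2% to 73.8%) and 81.4% (80.7% to 82.1%) for NCD 1, NCD 2 and NCD 3. Counting error alone enters these intervals, as reads that carry no molecular identifier need not stand for separate molecules. They do not touch each other. With fewer molecules than reads the intervals would be wider, so this alone does not show that libraries of 1 diet differed beyond counting error.

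The log2 ratio averaged 3.27 ± 0.31 over the HFD libraries against 1.58 ± 0.49 over the NCD libraries (SD, n = 3 per diet). Their difference was 1.68, which is 3.21-fold. Since the family was selected on the counts of miR-146a-5p, the difference is given as a description. It ran from 1.48 to 1.96 when 1 library at a time was left out.

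**Figure D2:**
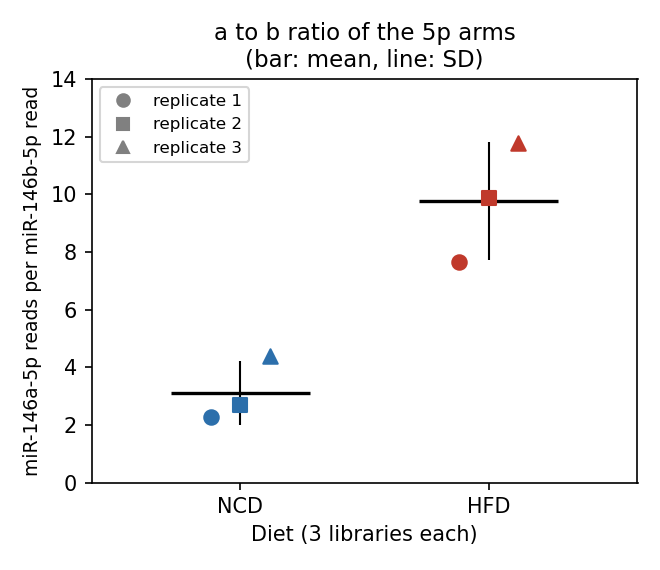
Reads of miR-146a-5p per read of miR-146b-5p in each library, by diet, on a linear axis from 0; symbols are libraries, the bar is the mean and the line the SD (n = 3). The HFD libraries lie at 7.67 to 11.8 and the NCD libraries at 2.27 to 4.38, without overlap.

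The sources used here do not give how reads that fit both 5p arms were counted. Reads cut short before position 18 would be the same for both arms. Against each 100 reads of miR-146a-5p, the miR-146b-5p row held 13.0, 10.1 and 8.49 in libraries HFD 1, HFD 2 and HFD 3, and 44.0, 37.0 and 22.8 in NCD 1, NCD 2 and NCD 3. Exchange between the rows was not tested, but their sum does not depend on it. The sum would still depend on shared reads that were counted in both rows or dropped. Summed, the 5p arms had 4175, 3311 and 5918 CPM in libraries HFD 1, HFD 2 and HFD 3, and 830, 1300 and 950 CPM in NCD 1, NCD 2 and NCD 3. The diets did not overlap, and the fit gave the sum a log2 fold change of 2.12 ± 0.33 (SE). Most of the summed reads are of miR-146a-5p, on whose counts the family was selected, so this too is a description.

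The 3p arms, the strands opposite the 5p arms in the hairpins, were close to absent. miR-146a-3p had 2 reads in HFD 1 and 0 in each of the other 5 libraries. miR-146b-3p had 4 reads in HFD 2, 1 in NCD 2 and 0 in the other 4 libraries. Neither passed the filter on low counts, and no diet comparison of them is given. At a floor of 3 counts of the scaled total, a library without a read could still hold 0.213 to 0.445 CPM of either.

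The arm ratio per library can mostly be given only as a bound. Where no 3p read was seen, 3 reads were taken as the most that arm could hold. On that basis miR-146a had at least 7933 and 19982 reads of the 5p arm per 3p read in HFD 2 and HFD 3. In NCD 1, NCD 2 and NCD 3 the bounds were 1295, 3095 and 3624. These bounds follow the 5p counts, so their order says nothing of a shift between arms. Exact 95% intervals for the 3p share reached up to 0.0155% in HFD 2 and 0.0949% in NCD 1, which allows lower ratios. In HFD 1, where 2 reads were seen, the 3p share was 0.00603% (exact 95% interval 0.000731% to 0.0218%). Over all libraries the 3p arm gave 2 of 140939 reads of the hairpin, or 0.00142% (0.000172% to 0.00513%).

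For miR-146b the 3p share was 0.166% (0.0451% to 0.423%) in HFD 2 and 0.0291% (0.000737% to 0.162%) in NCD 2. In the libraries without a 3p read the exact interval reached up to 0.0853% in HFD 1, 0.0725% in HFD 3, 0.216% in NCD 1 and 0.148% in NCD 3. The limits from 3 reads of the total were 0.0694%, 0.0590%, 0.176% and 0.121% in the same order. Over all libraries it gave 5 of 19453 reads, or 0.0257% (0.00835% to 0.0600%). Arm use was not compared between the diets for either hairpin, since so few 3p reads were seen.

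Most miRNAs with both arms listed were less one-sided. Among 132 miRNA names with both arms listed and at least 1000 reads between them, the rarer arm held a median of 1.72% of the reads. miR-146a had the second lowest share of these 132, after miR-21a (0.000785%), and miR-146b took place 13. The place of miR-146a rests on 2 reads. Its exact interval of 0.000172% to 0.00513% also covers the shares of miR-21a, let-7g (0.00213%) and miR-7b (0.00284%). Names with a single arm listed, such as miR-375, were left out of the ranking, and names with few reads could not reach such low shares. Ligation during library preparation favours some miRNA ends over others, so shares of arms are those of the libraries and not of the cells.

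**Figure D3:**
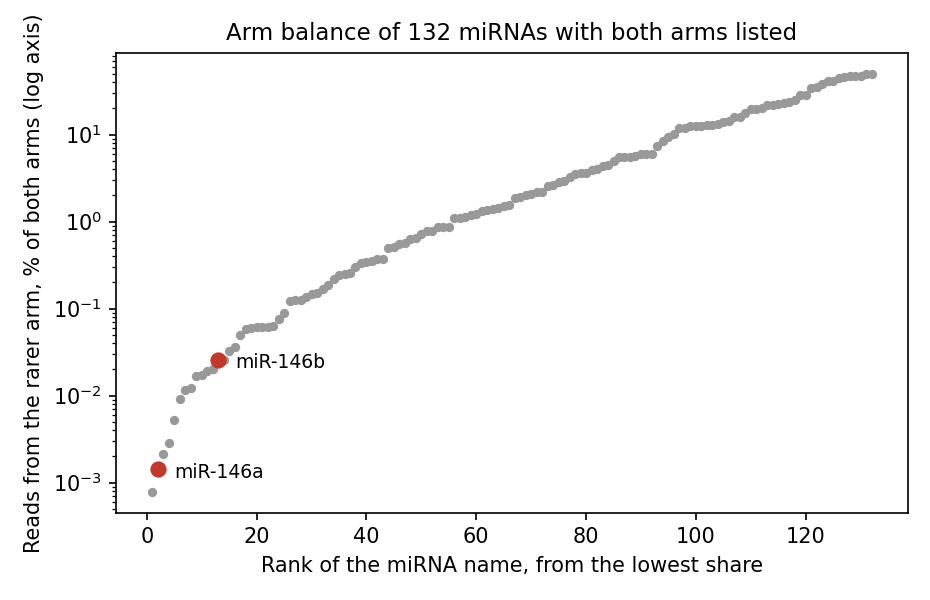
Share of reads from the rarer arm, in percent of both arms on a log axis, for the 132 miRNA names with both arms listed and at least 1000 reads over the 6 libraries, ranked from the lowest. miR-146a at 0.00142% and miR-146b at 0.0257% (red) lie far below the median of 1.72%.

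The other miRNAs of the same pathway were taken from a list of 19 known to respond to NF-kB or Toll-like receptor signalling, up or down. Of these 14 were tested, and with edgeR 0 passed in either direction, with 4 at an unadjusted p under 0.05 (34 of all 406). DESeq2, which called 3 miRNAs in all, called 1 of the list, miR-21a-5p. The fold changes were positive for 10 and negative for 4, where 51.2% of all tested miRNAs were positive. The median log2 fold change was 0.36 beside 0.03 for all tested miRNAs. On library totals alone the list median was -0.22, beside -0.37 for all tested miRNAs. The list median also leaned on single libraries, in part over other tested members. It was 0.12 without HFD 1, 0.099 without HFD 2 and 0.43 without HFD 3. Leaving out an NCD library gave 0.15 without NCD 1, 0.16 without NCD 2 and 0.24 without NCD 3. In these fits the median of all tested miRNAs lay between -0.06 and 0.07. With limma-trend on log2(TPM + 1) the list median was 0.02, beside -0.25 for all tested miRNAs. The diets did not overlap for 5 of the 14, of which 4 were higher in HFD. Over all tested miRNAs the shares were 15.3% in either direction and 10.3% with HFD higher. These 4 were miR-21a-5p, let-7e-5p (log2 fold change 0.13), and miR-132-5p and miR-212-5p of 1 cluster. The 14 hold both arms of miR-9, miR-132 and miR-212, so they are not all separate miRNAs.

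The most abundant on that list was miR-21a-5p, a stress and inflammation-induced miRNA, with 34913, 33743 and 52514 CPM in libraries HFD 1, HFD 2 and HFD 3, and 15366, 19448 and 14458 CPM in NCD 1, NCD 2 and NCD 3. Its diets did not overlap, and its log2 fold change was 1.30 ± 0.32 (SE, edgeR adjusted p = 0.204). let-7i-5p, known to target Tlr4, averaged 7454 ± 1058 CPM over the HFD libraries against 5131 ± 1841 CPM over the NCD libraries (SD, n = 3 per diet, edgeR adjusted p = 0.609). miR-125a-5p, which is known to restrain inflammatory signalling, went the other way, with 977 ± 217 and 1900 ± 454 CPM and no overlap (edgeR adjusted p = 0.392). let-7e-5p had 473 ± 19.4 and 433 ± 20.2 CPM, and miR-9-5p, another NF-kB-induced miRNA, had 370 ± 263 and 346 ± 60.7 CPM. miR-155-5p, the miRNA most often paired with miR-146a because NF-kB induces both and their effects on the pathway are opposed, was at 1.002, 5.30 and 2.45 CPM in libraries HFD 1, HFD 2 and HFD 3, and at 1.93, 4.82 and 5.05 CPM in NCD 1, NCD 2 and NCD 3. It overlapped between the diets and lay far below miR-146a-5p in each library.

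**Figure D4:**
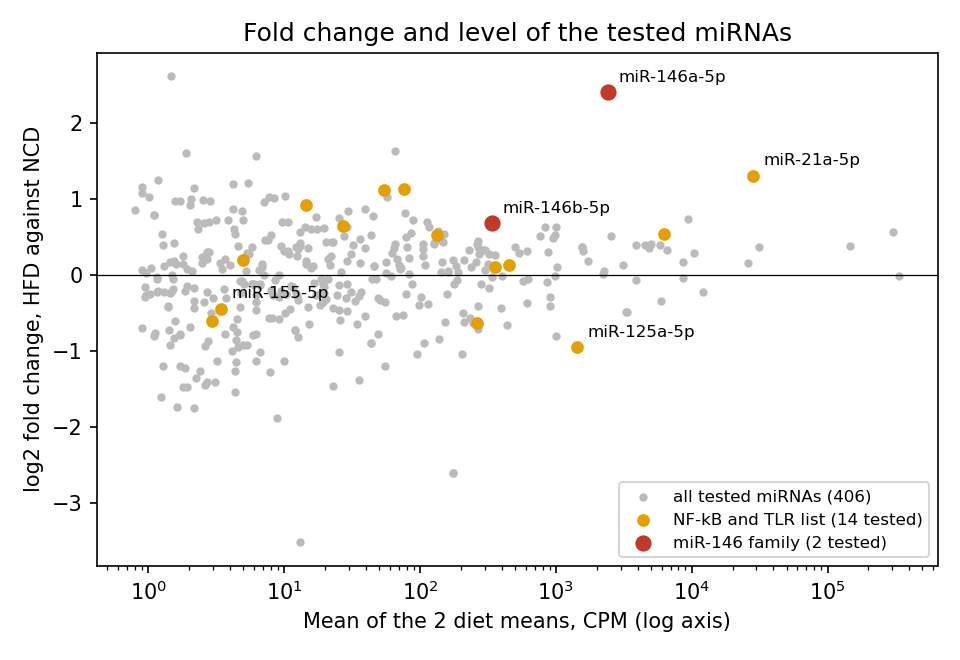
Log2 fold change, HFD against NCD, from the edgeR fit for each of the 406 tested miRNAs against its level (mean of the diet means in CPM, log axis); the miR-146 family is red and the 14 tested NF-kB and Toll-like receptor responsive miRNAs are orange. miR-146a-5p lies at 2.40, miR-146b-5p at 0.68 and miR-21a-5p at 1.30, and miR-155-5p lies among the least abundant.

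miR-146a is also abundant in leukocytes, so the markers of those cells are given beside it. The 5 leukocyte-enriched miRNAs were all above 0 reads in all libraries, at low level, and summed to 6.18 to 13.3 CPM in HFD and 13.0 to 30.4 CPM in NCD libraries. Fold changes of the 3 tested were negative, with log2 values of -0.93 for miR-142a-5p, -1.27 for miR-150-5p and -0.45 for miR-155-5p, and 0 passed with edgeR, limma-voom or DESeq2 or at an unadjusted edgeR p under 0.05. These values rested on few reads and single libraries. Without NCD 1 miR-142a-5p was at 0.14 and miR-142a-3p, which then passed the filter, at 1.19, and without HFD 1 miR-155-5p was at -0.07. miR-142a-3p, found across blood lineages, averaged 1.15 ± 0.287 CPM under HFD against 1.76 ± 2.21 CPM under NCD, and the myeloid miR-223-3p averaged 0.716 ± 0.367 against 2.86 ± 2.62 CPM (SD, n = 3 per diet). Per library, miR-146a-5p stood at 19.0 to 882 times the summed level of the 5 markers, a comparison between miRNAs that ligation can bias. The part of leukocytes in the values of miR-146a-5p was not tested.

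Markers of other cells varied between libraries. The acinar miRNAs, led by miR-217-5p, summed to 20.2 to 205 CPM in HFD and 111 to 418 CPM in NCD libraries. The endothelial pair, led by miR-126a-3p, summed to 299.8 to 434 and 346 to 748 CPM, the mesenchymal list, led by miR-143-3p, to 1329 to 4976 and 1515 to 2978 CPM, and the erythroid list, led by miR-451a, to 47.8 to 155 and 39.8 to 143 CPM. The liver and muscle list, led by miR-122-5p, summed to 885 CPM in NCD 1 and to 48.3 to 131 CPM in the other libraries. Both miR-216a arms were at 0 reads in HFD 1. Fold changes were negative for 3 of 3 tested acinar, 2 of 2 endothelial, 4 of 5 mesenchymal, 2 of 2 erythroid and 3 of 3 liver and muscle miRNAs, and with edgeR 0 of them passed, with 2 of the last list, miR-122-5p and miR-206-3p, at an unadjusted p under 0.05. Both of these were called lower in HFD by edgeR without a filter (adjusted p = 1.6e-09 each) and without NCD 2 (0.011 and 0.0033), and miR-122-5p also without NCD 3 (0.047). Without NCD 1, the library where both were highest, their log2 fold changes were -0.59 and -1.69 and their adjusted p 0.83 each, near the top of a range of 1.6e-09 to 0.833 over the alternatives. The summed ranges overlapped between the diets, and their part in the values of miR-146a-5p was not tested. Leaving out NCD 3, the library that stood apart, put miR-146a-5p at a log2 fold change of 2.41. For the 8 islet endocrine miRNAs the fold changes on the scaled totals were positive for 7 and negative for 1. Their median log2 fold change was 0.23, and 0 passed with edgeR.

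**Figure D5:**
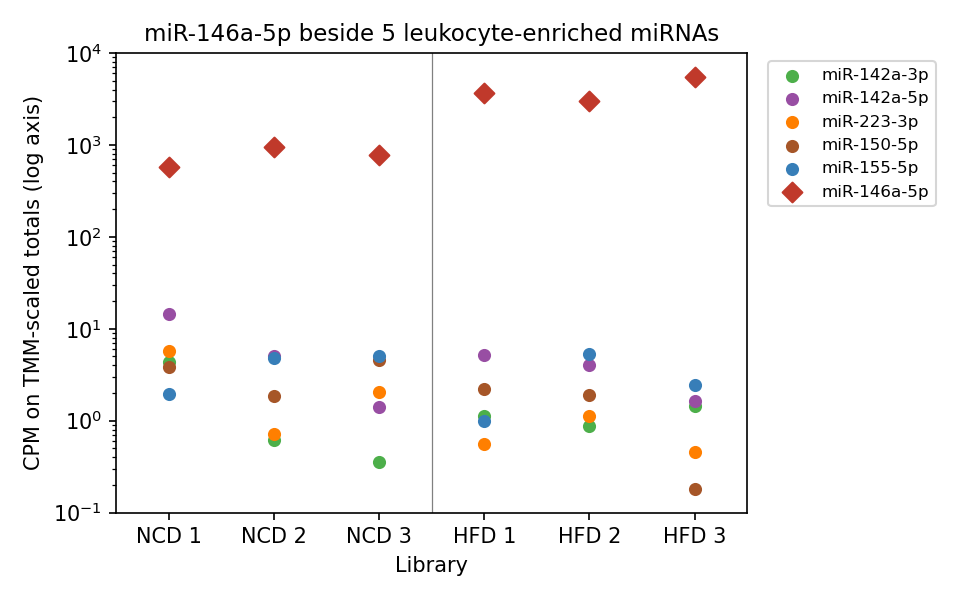
miR-146a-5p (red diamonds) and 5 leukocyte-enriched miRNAs in each library, in CPM on TMM-scaled totals on a log axis; NCD libraries are left of the line and HFD libraries right of it. The highest marker value is 14.5 CPM, for miR-142a-5p in NCD 1, while miR-146a-5p is at 576 CPM or more.

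The miRNAs whose level followed that of miR-146a-5p most closely over the 6 libraries were found by Pearson correlation of log2 CPM among 238 tested miRNAs with a mean of at least 10 CPM. The 5 highest were miR-434-5p (r = 0.985), miR-21a-5p (0.982), miR-325-5p (0.945), miR-409-5p (0.945) and miR-200a-3p (0.922). These 6 points share their diet grouping and their scaling. All 5 had diets that did not overlap, beside 15.3% of all tested miRNAs. Choice by correlation with miR-146a-5p favours this, so nothing is read from it. In miR-434-5p, a product of the imprinted Dlk1-Dio3 region, the levels were 1207, 1046 and 1378 CPM in libraries HFD 1, HFD 2 and HFD 3, and 704, 854 and 802 CPM in NCD 1, NCD 2 and NCD 3, so that it kept the order of the libraries seen in miR-146a-5p within HFD and within NCD over a much smaller range. On the log2 scale the fold changes were 0.62 for miR-434-5p, 0.77 for miR-325-5p, 0.80 for miR-409-5p and 0.74 for miR-200a-3p, with standard errors of 0.28 to 0.34 and none past the edgeR threshold. The paralogue miR-146b-5p came at place 33 of 238, with r = 0.776.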

How the data were processed

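Small RNA libraries (NEBNext kit, from total RNA isolated on RNeasy columns, per the labels' protocols) were deposited as 1 table. It holds the authors' raw read counts per mature miRNA and TPM values with a common sum in each library, per the file headers. The sources used here do not give the aligner, counter, genome build or treatment of reads shared between miRNAs. Counts were analysed with edgeR 4.0.16 in R 4.3.3: filterByExpr (minimum count of 10), TMM factors, estimateDisp, glmQLFit and glmQLFTest with diet as the only term, and Benjamini-Hochberg adjustment over all tested miRNAs, with a threshold of 0.05. The fitting steps were also run on simulated counts with large set changes and 1 fixed spread for all miRNAs. That setting is simpler than these libraries, so it checks the code alone. Ratios used raw counts, with a prior count of 0.5 for log2 ratios. Alternatives were other size factors and filters, DESeq2 1.42.0, limma 3.58.1 (voom, or trend on the deposited TPM values), a replicate block, each library left out, and other prior counts. The sum of both 5p arms was added after the data were seen. Sequences and positions are from RefSeq (GRCm38.p6) and GENCODE M21.

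The members, the marker lists and the lists of NF-kB and Toll-like receptor responsive, cytokine-responsive and prediabetic islet miRNAs were chosen with earlier results of these data known. Named were the members, called and the 5 most abundant tested miRNAs of each pathway list, all leukocyte markers, the most abundant marker of each other list and the 5 miRNAs most like miR-146a-5p. Other list members with values were chosen after these were seen. All 4 members matched RefSeq by name.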

Additional observations from a re-analysis of the deposited data

How the results depend on the processing

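The fold changes of miR-146a-5p and miR-146b-5p and the a to b ratio kept their direction under every alternative run. The fold changes moved by less than the SD of log2 CPM pooled over both diets, 0.40 for miR-146a-5p and 0.44 for miR-146b-5p. The move of miR-146a-5p from 2.40 to 2.03 on library totals was larger than its standard error of 0.34. The log2 fold change ran from 2.03 to 2.57 for miR-146a-5p and from 0.36 to 0.94 for miR-146b-5p. With 1 library left out the ranges were 2.10 to 2.57 and 0.45 to 0.94, and the difference in log2 a to b ratio ran from 1.48 to 1.96. The count of called miRNAs, 1 at first, was 0 on library totals only, 6 without a filter (2 higher and 4 lower), 3 with DESeq2 (3 higher), and 0 with limma-trend at a pseudocount of 1 or 0.1. It ran from 0 (without NCD 1) to 4 (without NCD 2), with 3 without NCD 3. The count on the NF-kB and Toll-like receptor list, 0 at first, was 1 with DESeq2 and 0 to 0 with each library left out. For the counts that moved, the cause was not tested. Fold changes and arm or a to b ratios that involve the 3p arms were not run under the alternatives, since a 3p count of 0 in most libraries leaves them to the prior count.

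Libraries with the same replicate number had deviations from their diet means that correlated over miRNAs at 0.17 for number 1, -0.24 for number 2 and 0.35 for number 3, so a shared number was not read as a pairing. With the replicate block the count of called miRNAs was 1, the log2 fold changes were 2.39 and 0.71, and the a to b difference was 1.68.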

Other observations

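Among 10 miRNAs known to respond to cytokines in beta cells, a group in which miR-146a is usually placed, 0 of 10 tested passed with edgeR, and 1, miR-21a-5p, had an unadjusted p under 0.05, a share near the 8.37% (34 of 406) of all tested miRNAs, of which 0.246% were called. Fold changes were positive for 4 and negative for 6, with a median of -0.04. After miR-21a-5p the most abundant were miR-101a-3p, with 986 ± 162 CPM over the HFD libraries against 998 ± 221 CPM over the NCD libraries, and miR-29a-3p, with 391 ± 153 and 326 ± 94.1 CPM (SD, n = 3 each). miR-23b-3p had 91.7 ± 8.01 and 112 ± 25.7 CPM, and miR-23a-3p 43.5 ± 5.03 and 45.2 ± 7.43 CPM. miR-34a-5p, which like miR-146a is known to rise in beta cells exposed to palmitate, had 1.08 ± 0.674 and 1.01 ± 0.175 CPM, near the lower end of what was tested.

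Among 11 miRNAs known from islets of prediabetic or diabetic mice, 0 of 11 tested passed with edgeR, and the median log2 fold change was 0.08. Of the 11, 1, miR-132-5p, had an unadjusted p under 0.05, again a share near the 8.37% of all tested miRNAs. The most abundant was miR-184-3p, a glucose-regulated beta-cell miRNA, with 2313 ± 945 CPM over the HFD libraries against 2233 ± 558 CPM over the NCD libraries (SD, n = 3 per diet). miR-203-3p had 223 ± 41.8 and 196 ± 42.3 CPM, and miR-383-5p had 61.1 ± 3.05 and 87.9 ± 7.87 CPM with no overlap between diets (log2 fold change -0.53, edgeR adjusted p = 0.605). Among products of the mir-132 hairpin, miR-132-3p had 157 ± 71.0 and 109 ± 92.7 CPM, with NCD 3 at 216 CPM, and miR-132-5p had 104 ± 50.9 and 47.6 ± 8.23 CPM with no overlap (edgeR adjusted p = 0.394). DESeq2, which called 3 miRNAs in all, called 1 of the first list, miR-21a-5p, and 0 of the second. Both miR-21a-5p and miR-132-5p are also on the NF-kB and Toll-like receptor list, so the lists are not separate.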
